A study of Homo sapiens with 19 samples.

Results

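The BCL2 family genes BCL2, BCL2L1, MCL1, BAX, BAK1, BBC3, PMAIP1, BCL2L11, BID and BMF were followed through SKBR3 breast cancer cells exposed to a chemotherapy drug or to low oxygen. Their probe sets were those that the platform annotation pairs with a single member gene, and all probe sets of a gene were taken. This gave 30 of the 54675 probe sets on the array, covering 9 of the 10 genes. BBC3 had 0 probe sets of its own, since the 1 probe set that names it also names 2 other genes, and it was not analysed here. Of the 30 probe sets, 26 passed a filter on low signal and were tested.

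SKBR3 is a human breast cancer line with amplified ERBB2. The groups were untreated cells (n = 3 arrays), cells given epirubicin at 60 nM for 3 days, and cells held at 1% oxygen for 7 days. Epirubicin is an anthracycline that poisons topoisomerase II. After each exposure the cells were sorted by surface CD44, a hyaluronan receptor, into a CD44lo and a CD44hi fraction (n = 4 arrays for each fraction and exposure). All groups share the SKBR3 background, which is a single line, and no sort is named for the untreated cells, so that exposure and sorting cannot be told apart in a comparison with them. The exposures also differ in length, so kind and length of exposure cannot be told apart where hypoxia is compared with epirubicin. The labels call the arrays biological replicates without saying what separated them, such as cultures or days, so the p-values measure the spread among these samples as labelled. The arrays measured RNA from many cells at once, and fewer cells with a transcript and less transcript per cell cannot be told apart.

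Proteins of the BCL2 family decide whether the outer mitochondrial membrane is opened during apoptosis. BCL2, BCL-XL (from BCL2L1) and MCL1 hold the effectors BAX and BAK in check. BH3-only proteins, among them NOXA (PMAIP1), BIM (BCL2L11), BID, BMF and PUMA (BBC3), bind the protective proteins or activate the effectors. NOXA binds MCL1 with preference. Once the membrane is open, cytochrome c reaches the cytosol and caspases are activated.

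The sequences before the start sites of PMAIP1 and BMF are shown because these were the members called higher in both fractions after epirubicin. They are RefSeq sequences of build GRCh38.p14, 250 bases up to the start site, read 5′ to 3′ on the strand of the gene. Capitals mark TGACG, the core bound by factors of the ATF and CREB type, on either strand. The PMAIP1 stretch is chr18:59899746-59899995 on the plus strand, and the BMF stretch is chr15:40108880-40109129 on the minus strand.
PMAIP1: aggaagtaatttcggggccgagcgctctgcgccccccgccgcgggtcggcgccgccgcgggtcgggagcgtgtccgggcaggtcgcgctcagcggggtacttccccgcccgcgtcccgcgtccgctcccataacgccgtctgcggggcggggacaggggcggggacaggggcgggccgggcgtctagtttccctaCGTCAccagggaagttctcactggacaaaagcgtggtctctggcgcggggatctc
BMF: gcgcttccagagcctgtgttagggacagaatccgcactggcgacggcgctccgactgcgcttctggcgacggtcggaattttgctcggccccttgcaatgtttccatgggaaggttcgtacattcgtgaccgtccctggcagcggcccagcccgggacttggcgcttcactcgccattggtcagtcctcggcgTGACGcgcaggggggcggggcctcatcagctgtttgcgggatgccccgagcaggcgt
TGACG began at position -55 from the start site in PMAIP1, where it reads CGTCA on the gene's strand, and at position -57 in BMF. Promoter windows of 250 bases before to 50 after the annotated start were matched for 7 of the 10 members, namely BCL2L1, BAX, BAK1, PMAIP1, BCL2L11, BID and BMF. TGACG was in 4 of these 7 windows, those of BCL2L1, BAX, PMAIP1 and BMF, against 24.6% of 35116 windows of the same length over all genes. BCL2L1 and BAX were not called in any comparison. CCAAT was in 4 of 7 (34.6% of all windows), GGGCGG in 5 of 7 (45% of all), and ACGTG, the core of the hypoxia response element, in 1 of 7, that of BAX (21.4% of all). A single decamer of the p53 response element was in 1 of 7, that of BAK1 (6.63% of all). Both strands were searched, and TGACG and ACGTG can share the letters ACG. These matches describe letters in a window and say nothing of binding.

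Values are linear signal intensities in arbitrary units, made by the authors with MAS5. A probe set was tested when it reached the median signal of the table, 16.9, on at least 3 arrays, which held for 32252 probe sets. Tests used limma on log2(signal + 4.2), with 4.2 the 25th percentile of the table, and folds are on that scale, which understates changes of dim probe sets. A probe set is called at a Benjamini-Hochberg adjusted p under 0.05 over all tested probe sets of a comparison. Values after ± are SD for signals and SE for log2 changes. The lead probe set of a gene is the one with the highest mean signal, and levels of different probe sets were not compared, since they bind with different strength.

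Every array had a trimmed mean of 100, and arrays of a group correlated at r between 0.918 and 0.981 over probe sets. The 7 markers of SKBR3 and luminal cells were all tested, with summed signals of 15777 to 25296 over all arrays. Immune cell markers (0 tested of 3 with a probe set, of 5 listed) summed to at most 26.8 on any array, and 1 of 5 stromal markers was tested, with sums of 27 to 71.9. The 4 endothelial markers (3 tested) summed to 54 to 57.6 on untreated arrays, 133 to 200 and 177 to 365 in CD44lo and CD44hi cells after epirubicin, and 98.9 to 287 and 110 to 135 after hypoxia. After epirubicin most of this was CDH5, at 33.4 ± 2.6 in untreated cells and 139 ± 28.5 and 199 ± 82.4 in the epirubicin groups, while VWF was below the filter. The ratio of 3′ to 5′ signal of ACTB, a sign of RNA quality, was 1.21 to 1.27 on untreated arrays, up to 1.85 after epirubicin and up to 1.41 after hypoxia. Hybridisation controls, bacterial transcripts added before hybridisation, averaged 1986 to 2350 on untreated arrays, up to 5818 after epirubicin and up to 3043 after hypoxia. The part of the endothelial genes and of the ACTB ratio in the results that follow was not tested, and results adjusted for the hybridisation controls are given where a call changed. These controls were higher on most treated arrays than on any untreated array, so this covariate and exposure cannot be fully told apart. A call that ended after this adjustment is therefore not shown to be technical. CD44 averaged 88.0 and 648 in CD44lo and CD44hi cells after epirubicin and 205 and 1042 after hypoxia, against 66.1 in untreated cells.

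**Figure D1:**
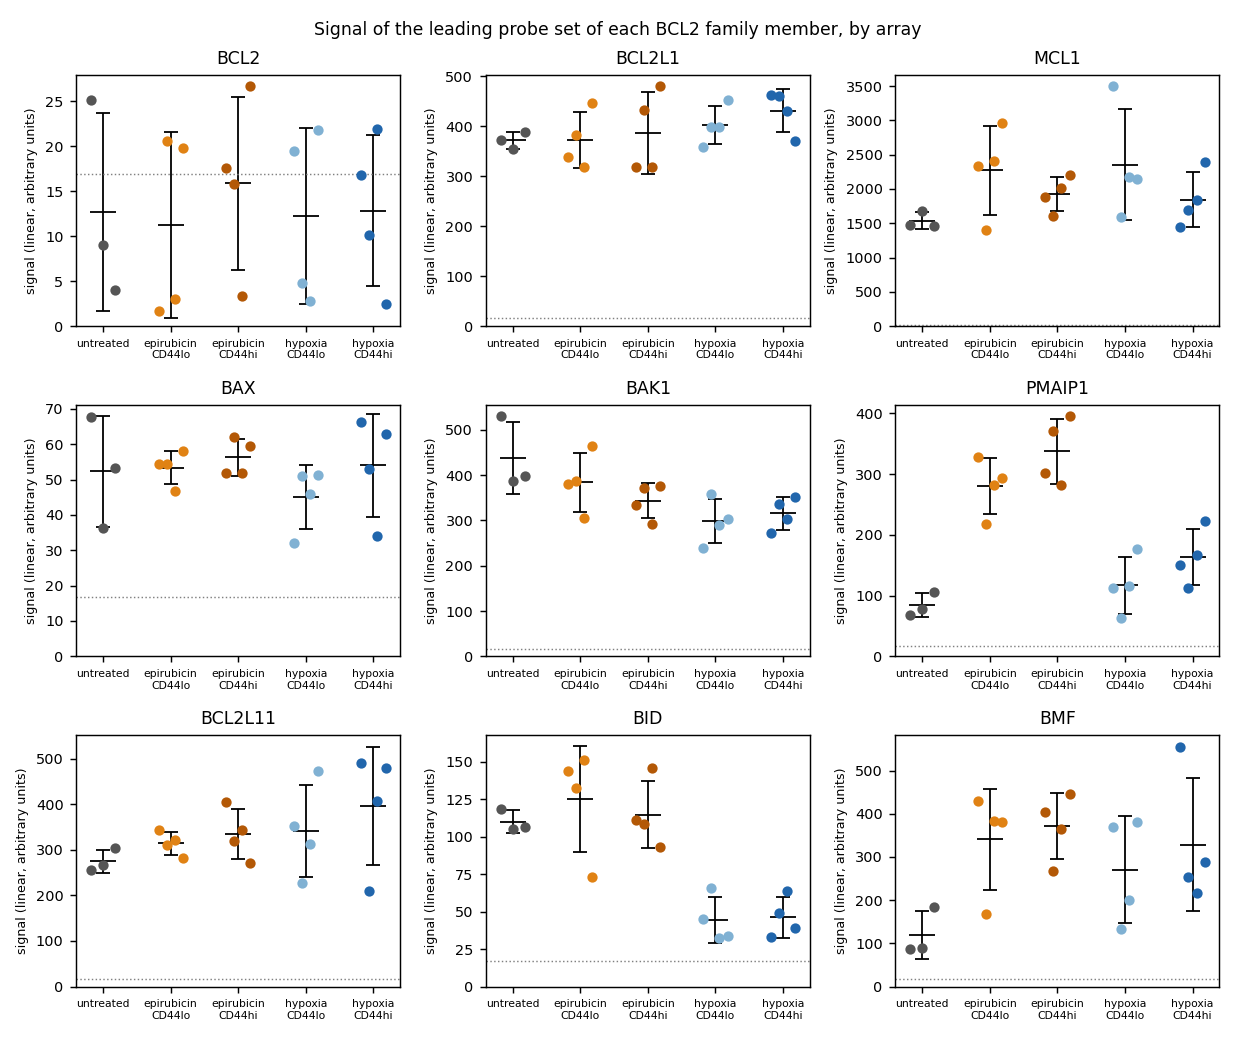
Signal of the lead probe set of each of the 9 measured members on every array (vertical axis, linear arbitrary units, from 0) by group. Points are arrays, bars are mean and SD, and the dotted line is the filter at 16.9. The 8 PMAIP1 points after epirubicin lie above the untreated ones, and the 8 BID points after hypoxia lie below them.

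Against untreated cells, called BCL2 family probe sets after epirubicin were all higher. In CD44lo cells 3 of 26 probe sets (11.5%) were called, all 3 higher, against 2.18% of all probe sets called, 1.63% higher and 0.555% lower. In CD44hi cells 6 of 26 (23.1%) were called, all 6 higher, against 5.56% of all, 3.85% higher and 1.71% lower. The median log2 change of the 26 was 0.32 in CD44lo and 0.27 in CD44hi cells, beside 0.01 and -0.01 over all tested probe sets. MCL1 with 6 and BCL2L11 with 7 probe sets weigh most in these figures. By lead probe set, 2 of 9 genes (22.2%) were called in each fraction, against 2.59% and 6.16% of all lead probe sets. The median over the 9 was 0.13 in CD44lo and 0.27 in CD44hi cells, beside 0.03 and 0.003 over all lead probe sets. The calls came from PMAIP1 and BMF in both fractions and from MCL1 in CD44hi cells. The members were chosen with earlier results of these data known, so the shares are description and do not show enrichment.

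After hypoxia calls went in both directions. In CD44lo cells 8 of 26 (30.8%) were called, 5 higher and 3 lower, against 17.2% of all probe sets, 8.92% higher and 8.28% lower. In CD44hi cells 7 of 26 (26.9%) were called, 4 higher and 3 lower, against 21.9% of all, 10.9% higher and 10.9% lower. The share among members was therefore near that of the whole array in CD44hi cells. Higher calls came from BMF, MCL1 and, in CD44hi cells, PMAIP1, and lower calls from BID and, in CD44lo cells, BAK1. All 4 comparisons share the 3 untreated arrays, so they are not independent of each other.

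These counts moved with single arrays. In CD44lo cells after epirubicin the count was 1 without untreated array 1 or 2 or without CD44lo array 1 or 3. In CD44hi cells after epirubicin it was 2 without untreated array 1, and 3 without untreated array 2 or 3 or CD44hi array 4. In CD44lo cells after hypoxia it was 2 without untreated array 1 and 4 without CD44lo array 4. In CD44hi cells after hypoxia it was 4 without untreated array 1 or CD44hi array 4, and 3 without untreated array 2.

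**Figure D2:**
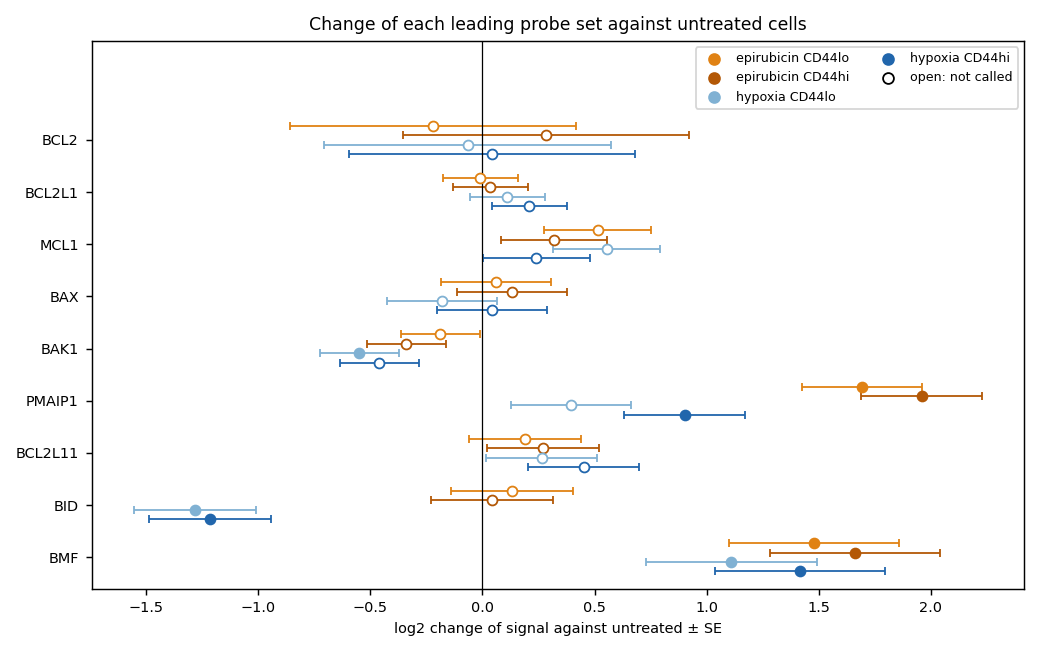
Log2 change of each lead probe set against untreated cells (horizontal axis, ± SE) for the 4 treated groups, with filled points called and open points not called. PMAIP1 lies at 1.69 and 1.96 after epirubicin, BID at -1.28 and -1.22 after hypoxia, and BMF is filled in all 4 groups.

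Among the protective members, BCL2 was close to the floor of the array. Its lead probe set 207004_at ranged from 1.7 to 26.7 with a median of 15.8, and 8 of the 19 arrays reached 16.9. The other 3 BCL2 probe sets were below the filter, at 0.2 to 8.2, 0.2 to 9.5 and 1.5 to 16.9. BCL2 was not called in any comparison, and its interval after epirubicin in CD44lo cells ran from -1.55 to 1.11 on the log2 scale (95%), so that a 2-fold change in either direction lay inside it.

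BCL2L1, which encodes BCL-XL, was measured well and lay at similar levels in the 5 groups. Its lead probe set 206665_s_at averaged 371.5 ± 17.2 in untreated cells, 371.6 ± 56.0 and 386.8 ± 82.3 in CD44lo and CD44hi cells after epirubicin, and 402.4 ± 38.6 and 431.4 ± 42.9 after hypoxia. The groups overlapped on every pair with untreated cells. The log2 change was -0.01 in CD44lo cells after epirubicin (95% interval -0.36 to 0.34), 0.03 in CD44hi cells (-0.31 to 0.38), 0.11 in CD44lo cells after hypoxia (-0.24 to 0.46) and 0.21 in CD44hi cells (-0.14 to 0.56). None of the 3 tested BCL2L1 probe sets was called in any of the 9 comparisons, and the probe set 231228_at, at 1.6 to 20.4, was below the filter.

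MCL1, the protective member that NOXA binds, had 6 tested probe sets, and all 24 of their log2 changes against untreated cells were above 0. How many passed depended on the probe set. The lead probe set 200797_s_at read 1472.6, 1680.3 and 1460.1 in untreated cells. After epirubicin it read 2329.5, 1394.5, 2402 and 2960.8 in CD44lo cells and 1879.1, 1610, 2009.4 and 2207.2 in CD44hi cells. After hypoxia it read 3494.1, 1586.6, 2177.8 and 2141.2 in CD44lo cells and 1450.1, 1691.6, 1844.3 and 2393.4 in CD44hi cells. The treated groups overlapped with untreated cells each time, array 2 being the lowest of its group in 3 of the 4 groups, and the lead probe set was not called (log2 changes 0.51, 0.32, 0.55 and 0.24, adjusted p from limma 0.279, 0.468, 0.115 and 0.524).

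The probe set 200796_s_at of MCL1 gave tighter groups. It read 231.6, 273.6 and 241.4 in untreated cells, 371.6, 368.7, 334.2 and 518.2 in CD44hi cells after epirubicin, 400.4, 353.6, 363.3 and 355.9 in CD44lo cells after hypoxia, and 339.1, 411.9, 370.6 and 421.4 in CD44hi cells after hypoxia. The CD44lo cells after epirubicin read 365.4, 298.8, 306.8 and 360.3. In all 4 treated groups every array exceeded every untreated array. It was called in CD44hi cells after epirubicin (log2 change 0.65 ± 0.16, adjusted p = 0.0174 by limma) and in CD44lo (0.56, 0.0169) and CD44hi cells (0.62, 0.00665) after hypoxia, and not in CD44lo cells after epirubicin (0.41, 0.179). The other called MCL1 probe sets were 200798_x_at, 214056_at and 214057_at, at log2 changes of 0.47 to 0.58. In all, 3 of 6 MCL1 probe sets were called in CD44hi cells after epirubicin, 4 of 6 in CD44lo cells after hypoxia, 2 of 6 in CD44hi cells after hypoxia and 0 of 6 in CD44lo cells after epirubicin. With the log2 values of all probe sets of a gene averaged, MCL1 was called in these same 3 groups, at 0.45 (adjusted p = 0.0426), 0.52 (0.00768) and 0.39 (0.0296).

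The MCL1 calls after epirubicin ended under several settings. With the epirubicin arrays numbered 4 left out, the adjusted p of 200796_s_at, 214056_at and 214057_at was 0.0630, 0.127 and 0.132, and adjustment for the hybridisation controls gave 0.315, 0.478 and 0.799, so that all 3 calls also ended. For 214056_at and 214057_at they also ended without the filter (0.0827 and 0.0788), with quantile normalization (0.0530 and 0.0512), with the compared groups fitted alone (0.0795 and 0.0806) and without the variance trend (0.0966 and 0.0948). For 200796_s_at the call ended without untreated array 1 (0.111) or 3 (0.0583) or CD44hi array 4 (0.0644). The call of 214056_at held without CD44lo array 4 or CD44hi array 2 after epirubicin, or CD44lo array 1, 2 or 4 or CD44hi array 1 after hypoxia, and ended without any other array, at 0.0503 to 0.242. That of 214057_at held without CD44lo array 2 or 4 or CD44hi array 2 after epirubicin, or CD44lo array 1 or 2 after hypoxia, and ended otherwise at 0.0502 to 0.272. After hypoxia the call of 200796_s_at in CD44hi cells held without each of the 19 arrays in turn, and in CD44lo cells it ended without untreated array 1 (0.0846) or 3 (0.0603). The other MCL1 calls after hypoxia also ended without untreated array 1, at 0.0836 to 0.147 in CD44lo cells and 0.212 in CD44hi cells. In CD44lo cells 214056_at ended without CD44lo array 4 (0.0511) and 214057_at without CD44lo array 1 (0.0556) or 4 (0.0607), and in CD44hi cells 214057_at ended without untreated array 2 or any 1 CD44hi array, at 0.0581 to 0.0723, and after adjustment for the hybridisation controls (0.0588), without the filter (0.0633), without the variance trend (0.0716) and without both hypoxia arrays numbered 2 (0.0570). The call of 200798_x_at in CD44lo cells after hypoxia ended with the compared groups fitted alone (0.0603). Calls were gained in CD44hi cells after hypoxia for 214056_at without CD44lo array 1 or 2 or CD44hi array 1 after hypoxia, or CD44hi array 4 after epirubicin (0.0388 to 0.05), and under 4 other settings (0.0344 to 0.0480), and for 200798_x_at in both CD44hi groups without hypoxia CD44lo array 1 (0.0470 and 0.0388). The lead probe set was called in CD44lo cells after hypoxia when CD44lo array 2 was left out (log2 change 0.72, adjusted p = 0.0313). That array, and CD44hi array 1 for 214056_at, were the lowest of their groups. Calls gained by leaving them out describe the other arrays and are no support for a rise.

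**Figure D3:**
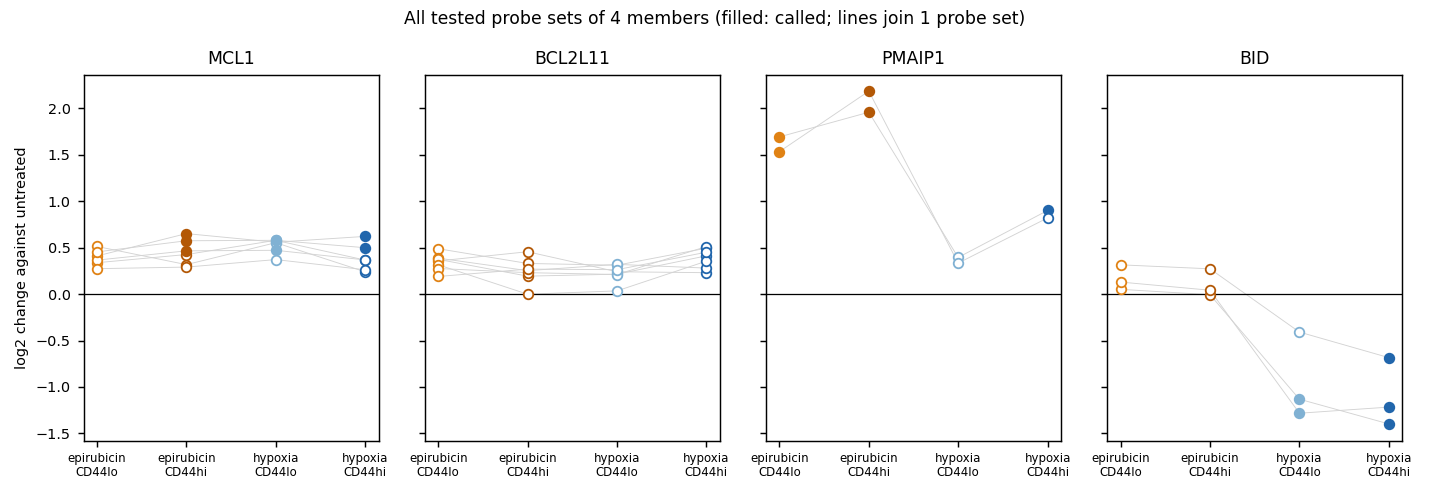
Log2 change against untreated cells (vertical axis) of every tested probe set of MCL1, BCL2L11, PMAIP1 and BID in the 4 treated groups, with filled points called and lines joining the values of 1 probe set. The 6 MCL1 probe sets lie above 0 in each group but are filled only in part, and the 3 BID probe sets drop below 0 in both hypoxia groups.

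Of the effectors, BAX was low and did not pass in any comparison. BAK1 was called lower in 1 group, while its log2 change was below 0 in all 4 treated groups. BAX, which opens the mitochondrial membrane, read 67.6, 36.2 and 53.3 in untreated cells on its lead probe set 211833_s_at and ranged from 32 to 67.6 over all arrays, so that untreated cells alone spanned almost the whole range. Its log2 change was 0.06 and 0.13 in CD44lo and CD44hi cells after epirubicin and -0.18 and 0.04 after hypoxia. The 95% interval in CD44hi cells after epirubicin was -0.38 to 0.64.

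BAK1, the other effector, read 529.9, 387.3 and 398.7 in untreated cells on its only tested probe set, 203728_at. After hypoxia it read 239.7, 359.3, 290.4 and 303.9 in CD44lo cells and 271.8, 337.3, 302.2 and 352.4 in CD44hi cells. Each of these 8 arrays lay below the lowest untreated array. BAK1 fell in CD44lo cells, by 0.55 ± 0.18 on the log2 scale (1.46-fold, adjusted p = 0.0345 by limma). In CD44hi cells the log2 change was -0.46 (adjusted p = 0.0652), and after epirubicin it was -0.19 in CD44lo cells and -0.34 in CD44hi cells (0.269), neither called. The call in CD44lo cells ended without untreated array 1 (0.208), 2 (0.0512) or 3 (0.0559), without CD44lo array 1 (0.0933), 3 (0.0674) or 4 (0.0621), with the hybridisation controls as a covariate (0.0690), without the filter (0.0528), without the variance trend (0.0538) and with the compared groups fitted alone (0.0871). In CD44hi cells it was called without CD44lo array 1 (0.0486), with the filter at the 75th percentile (0.0440) and with probe sets averaged per gene (0.0473).

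PMAIP1, which encodes NOXA, showed the largest rise of any member after epirubicin. Its lead probe set 204285_s_at read 68.6, 78 and 105.8 in untreated cells. It read 328.3, 217.3, 281.4 and 294 in CD44lo cells and 301.2, 370.6, 282.3 and 395.3 in CD44hi cells after epirubicin. Every epirubicin array was at least at 217.3, while no untreated array passed 105.8. The rise was 3.24-fold in CD44lo cells (log2 1.69 ± 0.27, adjusted p = 0.00278 by limma) and 3.89-fold in CD44hi cells (1.96 ± 0.27, 0.000264), from a mean of 84.1 ± 19.3 to 280.2 ± 46.4 and 337.4 ± 54.2. Both calls held without each of the 19 arrays in turn and without both epirubicin arrays of number 4. They also held after adjustment for the hybridisation controls as a covariate, where the log2 changes were 1.5 (adjusted p = 0.0206) and 1.65 (0.0211).

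The other PMAIP1 probe set moved the same way after epirubicin. It, 204286_s_at, read 29.6, 35.9 and 54.6 in untreated cells, 159.2, 122.1, 116.5 and 92.9 in CD44lo cells and 183.3, 233.3, 159.2 and 198.1 in CD44hi cells. All arrays after epirubicin lay above the untreated ones, at log2 changes of 1.54 (adjusted p = 0.0276) and 2.19 (0.00117). In CD44lo cells that call ended without untreated array 1 (0.190) or 2 (0.135), without CD44lo array 1 (0.0885) or 3 (0.0688), and after adjustment for the hybridisation controls (0.134).

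After hypoxia PMAIP1 lay between untreated cells and cells after epirubicin. The lead probe set read 112.6, 62.9, 116.3 and 177.2 in CD44lo cells, which overlap with untreated cells, and 149.7, 112.4, 166.9 and 222.9 in CD44hi cells, all above them. It rose 1.87-fold in CD44hi cells (log2 0.90 ± 0.27, adjusted p = 0.0196) and was not called in CD44lo cells (0.40 ± 0.27, 0.339). The CD44hi call ended without untreated array 1 (0.101) or 2 (0.0716), without CD44hi array 4 (0.0754), and after adjustment for the hybridisation controls (0.0502). Array 2 was the lowest in both hypoxia groups, and without both of these arrays PMAIP1 was called in CD44lo cells too (0.65, adjusted p = 0.0421) and in CD44hi cells at 1.06 (0.00168). In that setting 12.0% of all probe sets were called higher in CD44lo cells and 12.7% in CD44hi cells. Probe set 204286_s_at, at 0.82 in CD44hi cells after hypoxia (0.110), was called there without CD44lo array 2 (0.0451) or CD44hi array 2 (0.0235). Since the arrays left out were the ones low for PMAIP1, calls gained in this way describe the other arrays and are no support for a rise.

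Set directly against each other, hypoxia and epirubicin differed in PMAIP1 within both fractions. The lead probe set was lower after hypoxia than after epirubicin by a log2 change of -1.30 in CD44lo cells (95% interval -1.82 to -0.78, adjusted p = 0.00117 by limma) and of -1.06 in CD44hi cells (-1.58 to -0.54, 0.00589). No hypoxia CD44lo array reached the lowest epirubicin CD44lo array, and the same held in CD44hi cells. In both of these comparisons 5 of the 26 member probe sets were called, 0 higher and 5 lower after hypoxia, all of PMAIP1 and BID. Over all probe sets 13.1% were called in CD44lo cells (6.49% higher, 6.64% lower) and 14.8% in CD44hi cells (7.34% higher, 7.47% lower). The count in CD44lo cells was 3 without epirubicin CD44lo array 1, where 204286_s_at of PMAIP1 (adjusted p = 0.0676) and 227143_s_at of BID (0.0930) ended, and 204286_s_at also ended without hypoxia CD44lo array 2 (0.0600).

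BMF, a BH3-only protein kept at the cytoskeleton in healthy cells, was called higher in all 4 treated groups. Its only probe set, 226530_at, read 86.8, 88.5 and 183.5 in untreated cells, the third array standing above the other two. After epirubicin it read 429.4, 169.1, 384.1 and 379.8 in CD44lo cells and 404.3, 267.7, 364.6 and 446.1 in CD44hi cells. After hypoxia it read 369.9, 132.8, 199.3 and 380.9 in CD44lo cells and 555.6, 253.8, 217.4 and 287.6 in CD44hi cells. The CD44hi arrays all lay above the untreated ones, while array 2 of each CD44lo group fell below the highest untreated array.

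BMF rose 2.79-fold in CD44lo cells (log2 1.48 ± 0.38, adjusted p = 0.0426 by limma) and 3.16-fold in CD44hi cells (1.66 ± 0.38, 0.0129) after epirubicin. After hypoxia it rose 2.16-fold in CD44lo cells (1.11 ± 0.38, 0.0474) and 2.67-fold in CD44hi cells (1.42 ± 0.38, 0.0102). Group means went from 119.6 ± 55.3 in untreated cells to 340.6 ± 117, 370.7 ± 76.3, 270.7 ± 124 and 328.6 ± 154 in the same order. With the hybridisation controls as a covariate the log2 changes were 0.99 (adjusted p = 0.291), 0.88 (0.501), 0.84 (0.101) and 1.12 (0.0236), so that CD44hi cells after hypoxia alone kept the call. The controls were higher on most treated arrays, so the adjustment can also take away part of an exposure effect. Without the epirubicin arrays numbered 4 the adjusted p after epirubicin was 0.120 and 0.0511. In the CD44lo groups the call also ended without the filter (0.0537 after epirubicin, 0.0668 after hypoxia) and without the variance trend (0.0767 and 0.0740). After hypoxia it ended in CD44lo cells too with an offset of 16 (0.0501), with quantile normalization (0.0513), with the compared groups fitted alone (0.0804) and without the epirubicin arrays numbered 4 (0.0564).

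Single arrays also ended BMF calls. Without untreated array 1 or 2 all 4 calls ended, at adjusted p of 0.251 and 0.220 (CD44lo) or 0.0978 and 0.0894 (CD44hi) after epirubicin. After hypoxia they were 0.194 and 0.177 (CD44lo) or 0.0610 and 0.0594 (CD44hi). In CD44lo cells after epirubicin the call also ended without CD44lo array 1, 3 or 4, CD44hi array 3, or hypoxia CD44lo array 3, at 0.0514 to 0.124. In CD44lo cells after hypoxia it also ended without CD44lo array 1, 3 or 4, CD44hi array 4, or epirubicin CD44lo array 1, 3 or 4 or CD44hi array 1 or 3, at 0.0509 to 0.148. BMF did not differ by call between hypoxia and epirubicin (log2 -0.37, 95% interval -1.10 to 0.36, in CD44lo cells and -0.25, -0.98 to 0.48, in CD44hi cells).

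BID, which caspase 8 cleaves to link death receptors to mitochondria, fell in both fractions after hypoxia and was not called in either after epirubicin. Its lead probe set 211725_s_at read 118.8, 105 and 106.4 in untreated cells. After epirubicin it read 144, 132.6, 151.2 and 73 in CD44lo cells and 111.3, 108.5, 146 and 93.3 in CD44hi cells, overlapping with untreated cells in both. After hypoxia it read 45.3, 65.9, 32.5 and 33.8 in CD44lo cells and 32.8, 48.9, 64.1 and 39.1 in CD44hi cells. No hypoxia array passed 65.9, below every other array of the series.

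BID fell by 1.28 ± 0.27 on the log2 scale in CD44lo cells after hypoxia (2.43-fold, adjusted p = 0.00253 by limma) and by 1.22 ± 0.27 in CD44hi cells (2.32-fold, 0.00276). Against epirubicin it was lower by log2 changes of -1.41 (0.000591) in CD44lo and -1.26 (0.00159) in CD44hi cells. Probe set 204493_at fell by similar amounts, 1.13 (0.00378) and 1.40 (0.000433) against untreated cells, and both probe sets kept these calls without each of the 19 arrays in turn and after adjustment for the hybridisation controls. Probe set 227143_s_at changed less, at -0.41 (0.230) and -0.68 (0.0336), and its call in CD44hi cells ended without untreated array 2 (0.126) or 3 (0.106) or CD44hi array 1 (0.0820), 2 (0.0507) or 4 (0.0639), without both hypoxia arrays numbered 2 (0.0520) and without the filter (0.0561). It was called in CD44lo cells without CD44lo array 1 (0.0370), the array highest for it, which is no support for a fall. Against epirubicin in CD44lo cells its call (-0.72, 0.0245) ended without epirubicin CD44lo array 1 (0.0930) or 3 (0.0557) or hypoxia CD44lo array 3 (0.0965) or 4 (0.0676), and with the compared groups fitted alone (0.101).

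BCL2L11, which encodes BIM, had 7 tested probe sets and 0 of them were called in any of the 9 comparisons. Its lead probe set 225606_at read 255.1, 267 and 303.8 in untreated cells, 342.7, 311.6, 321.6 and 282.5 in CD44lo cells and 405.7, 320.1, 343.1 and 272.1 in CD44hi cells after epirubicin. After hypoxia it read 353.4, 227.6, 313.2 and 472.6 in CD44lo cells and 490.8, 210.1, 407.6 and 479.3 in CD44hi cells. In both hypoxia groups array 2 lay below all untreated arrays and the other 3 arrays lay above them. The log2 change was 0.26 in CD44lo (95% interval -0.25 to 0.78) and 0.45 in CD44hi cells (-0.06 to 0.97) after hypoxia.

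Against the untreated mean, this split between array 2 and the others ran through most BCL2L11 probe sets. The exceptions were all on array 3. On array 2 of CD44lo and of CD44hi cells after hypoxia 0 of the 7 probe sets were above the untreated mean, at a median log2 difference of -0.35 and -0.38. On arrays 1, 3 and 4 it was 7, 6 and 7 of 7 in CD44lo cells, with medians of 0.32, 0.21 and 0.83, and 7, 4 and 7 of 7 in CD44hi cells, with medians of 0.91, 0.43 and 0.79. The hybridisation controls moved with this split. They averaged 2071 and 2279 on the arrays numbered 2, within the untreated range of 1986 to 2350, and 2589 to 3043 on the other hypoxia arrays. With them as a covariate 0 of the 7 probe sets were called in either fraction, the same as without them. The lead probe set was then at 0.20 in CD44lo and 0.38 in CD44hi cells. Their part in the split between arrays was not tested.

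Without both arrays numbered 2, 4 of the 7 probe sets were called higher in CD44hi cells, where 12.7% of all probe sets were called higher, with the lead probe set at 0.73 ± 0.18 (adjusted p = 0.00492 by limma). In CD44lo cells it was 0 of 7 (lead 0.44, 0.0811), against 12.0% of all. Leaving out CD44hi array 2 alone gave 3 calls in CD44hi cells (12.0% of all called higher), the lead one at an adjusted p of 0.0145. Since the arrays left out were the ones low for BCL2L11, these calls describe the other arrays and are no support for a rise.

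**Figure D4:**
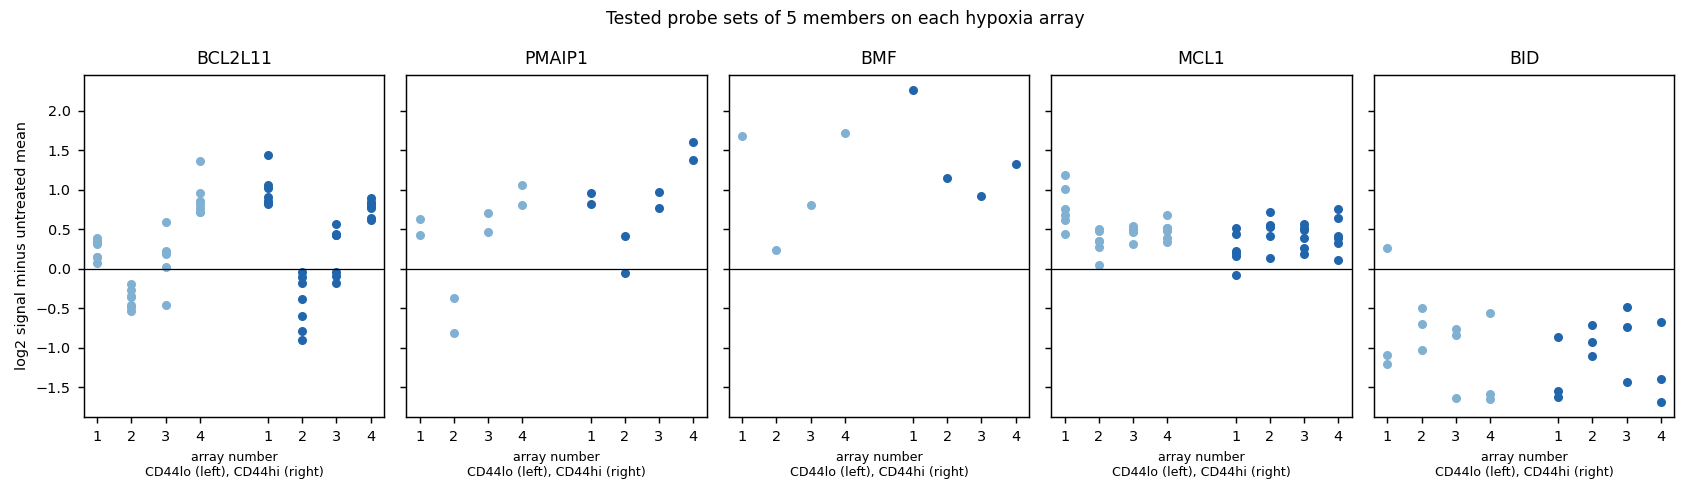
Log2 signal minus the untreated mean (vertical axis) of every tested probe set of BCL2L11, PMAIP1, BMF, MCL1 and BID on each hypoxia array, with CD44lo arrays 1 to 4 to the left and CD44hi arrays 1 to 4 to the right of each panel. On the arrays numbered 2 the 7 BCL2L11 points lie below 0, while the BID points lie below 0 there and on the other arrays, except 1 probe set, 227143_s_at, on CD44lo array 1.

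CD44hi and CD44lo cells were then compared within each exposure, to see whether the sort separated cells by these genes. None of the 26 probe sets was called after epirubicin, where 0.00620% of all probe sets were, or after hypoxia, where 0% of all were called by limma. CD44 itself, the sorted marker, was thus not called after hypoxia either, although its mean signal was higher in CD44hi cells. The absence of calls therefore cannot show that these genes were alike in the fractions. At an unadjusted p under 0.05 there were 0 of 26 after epirubicin (2.49% of all) and 1 of 26 after hypoxia (6.55% of all). This was probe set 208478_s_at of BAX, named after its value was seen, higher in CD44hi cells by log2 0.79 ± 0.29 (adjusted p = 0.703), while the lead BAX probe set was at 0.22. The difference of the CD44 effects between hypoxia and epirubicin was called for 0 of 26 probe sets and 0% of all, with 0 of 26 at an unadjusted p under 0.05 (2.31% of all).

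The intervals show what these comparisons could see if the arrays are independent. Deviations from the group means of same-numbered CD44lo and CD44hi arrays correlated at 0.07 to 0.50 after epirubicin and -0.01 to 0.61 after hypoxia. The intervals leave this out. With the replicate number added to the fit, 0 member probe sets were called between the fractions. The numbers were shared across all 5 groups in that fit, so it was not a paired test within an exposure. For PMAIP1 the CD44hi minus CD44lo log2 difference was 0.27 after epirubicin (95% interval -0.25 to 0.78) and 0.51 after hypoxia (-0.01 to 1.02). For BID it was -0.09 (-0.61 to 0.44) and 0.07 (-0.46 to 0.59), and for BMF 0.18 (-0.55 to 0.91) and 0.30 (-0.43 to 1.03). For MCL1 it was -0.20 (-0.65 to 0.26) and -0.31 (-0.77 to 0.14), and for BCL2L1 0.04 (-0.28 to 0.37) and 0.10 (-0.22 to 0.42). A 2-fold difference lay outside the intervals of BID, MCL1 and BCL2L1, and inside those of BMF and PMAIP1 after hypoxia.

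Other genes of the pathway were taken from 3 lists, by lead probe set. The lists were chosen with earlier results of these data known, so their shares are description and do not show enrichment. Of 13 further family members 11 were tested. None was called after epirubicin in CD44lo cells (2.59% of all lead probe sets called) or CD44hi cells (6.16% of all), and after hypoxia 2 rose and 1 fell in each fraction (20.9% and 25.6% of all called). BNIP3L, a mitochondrial receptor for mitophagy, rose from 145 ± 41.1 in untreated cells to 1076 ± 429 in CD44lo and 1303 ± 442 in CD44hi cells, 6.84-fold and 8.48-fold (log2 2.77 ± 0.34 and 3.08 ± 0.34, adjusted p = 1.31e-05 and 2.28e-06 by limma). BNIP3, a related hypoxia-induced protein, rose by log2 1.45 ± 0.21 and 1.59 ± 0.21. BCL2L12 fell by 0.98 and 0.97, and its call ended without untreated array 1 (0.0859 and 0.0722), in CD44lo cells also without untreated array 2 (0.0546) or 3 (0.0558) or CD44lo array 4 (0.0750), and in CD44hi cells without CD44hi array 4 (0.0744).

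Downstream of the mitochondrion 14 of 17 listed genes were tested. After epirubicin 0 were called in CD44lo cells and 1 fell in CD44hi cells, VDAC3, a channel of the outer membrane, by 0.63 (adjusted p = 0.0281). That call ended without untreated array 1 (0.181) or 2 (0.120) or CD44hi array 1 (0.0631), 3 (0.0536) or 4 (0.0813), after adjustment for the hybridisation controls (0.518), and without the epirubicin arrays numbered 4 (0.0844). The share in CD44hi cells was 7.14%, against 6.16% of all lead probe sets. After hypoxia 1 rose and 3 fell in each fraction, 28.6% called against 20.9% (CD44lo) and 25.6% (CD44hi) of all lead probe sets. BIRC5, which encodes survivin, an inhibitor of apoptosis that is made in dividing cells, went from 1768 ± 60.9 to 312 ± 220 in CD44lo and 267 ± 173 in CD44hi cells, log2 changes of -2.80 and -2.98. AIFM1, an oxidoreductase of the inner membrane, fell by 1.47 and 1.25. These calls of BIRC5 and AIFM1 held without each of the 19 arrays in turn.

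BIRC2, another inhibitor of apoptosis, rose after hypoxia by log2 0.93 in CD44lo and 0.61 in CD44hi cells, the latter call ending without untreated array 2 (adjusted p = 0.104) or CD44hi array 4 (0.0634). CYCS, cytochrome c, fell by 0.77 in CD44lo cells (0.0328), a call that ended without untreated array 1 (0.117), 2 (0.100) or 3 (0.0579) or CD44lo array 1 (0.0958) or 4 (0.0739), after adjustment for the hybridisation controls (0.0599), without the filter (0.0514), and with the compared groups fitted alone (0.102). VDAC1 fell by 0.55 in CD44hi cells (0.0246), a call that ended without untreated array 2 (0.0963) or 3 (0.0949) or CD44hi array 1 (0.0911), or without both hypoxia arrays numbered 2 (0.0503).

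Of 12 listed regulators of the members 11 were tested. After epirubicin 2 rose in each fraction and 0 fell, DDIT3 and STAT3, which is 18.2% against 2.59% (CD44lo) and 6.16% (CD44hi) of all lead probe sets. After hypoxia 0 rose, and 1 fell in CD44lo cells (9.09% against 20.9%) and 2 in CD44hi cells (18.2% against 25.6%). DDIT3 encodes CHOP, a transcription factor of the integrated stress response, and went from 48.9 ± 20.0 to 198 ± 85.1 in CD44lo cells (3.70-fold, adjusted p = 0.0280 by limma) and 179 ± 114 in CD44hi cells (0.0331). STAT3, a transcription factor downstream of cytokine receptors, rose by log2 0.75 (0.0318) and 0.94 (0.00425). Adjusted for the hybridisation controls, none of these 4 calls held (DDIT3 0.204 and 0.779, STAT3 0.177 and 0.188). This covariate and exposure cannot be fully told apart. Without the epirubicin arrays numbered 4 the DDIT3 calls (0.0610 and 0.108) and the STAT3 call in CD44lo cells (0.0819) ended, and the latter also ended without the filter (0.0506).

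The DDIT3 calls ended without untreated array 1 or 2 and without array 1, 3 or 4 of the same fraction, at 0.0662 to 0.173 in CD44lo and 0.0543 to 0.163 in CD44hi cells. The STAT3 call in CD44lo cells ended without any 1 untreated array or CD44lo array 1, 3 or 4, at 0.0540 to 0.192, and that in CD44hi cells held without each array. After hypoxia E2F1, a factor that drives entry into S phase, fell by 1.82 and 1.58, and HIF1A, the oxygen-regulated subunit of the hypoxia factor, fell by 0.83 in CD44hi cells (0.00854). The E2F1 call ended without untreated array 2 (0.0582) in CD44lo cells, and without untreated array 1 (0.0640) or 2 (0.0923) or CD44hi array 1 (0.0563) in CD44hi cells. HIF1A was also called in CD44lo cells without CD44lo array 1 (0.0302) or 2 (0.0460), calls that describe the remaining arrays.

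**Figure D5:**
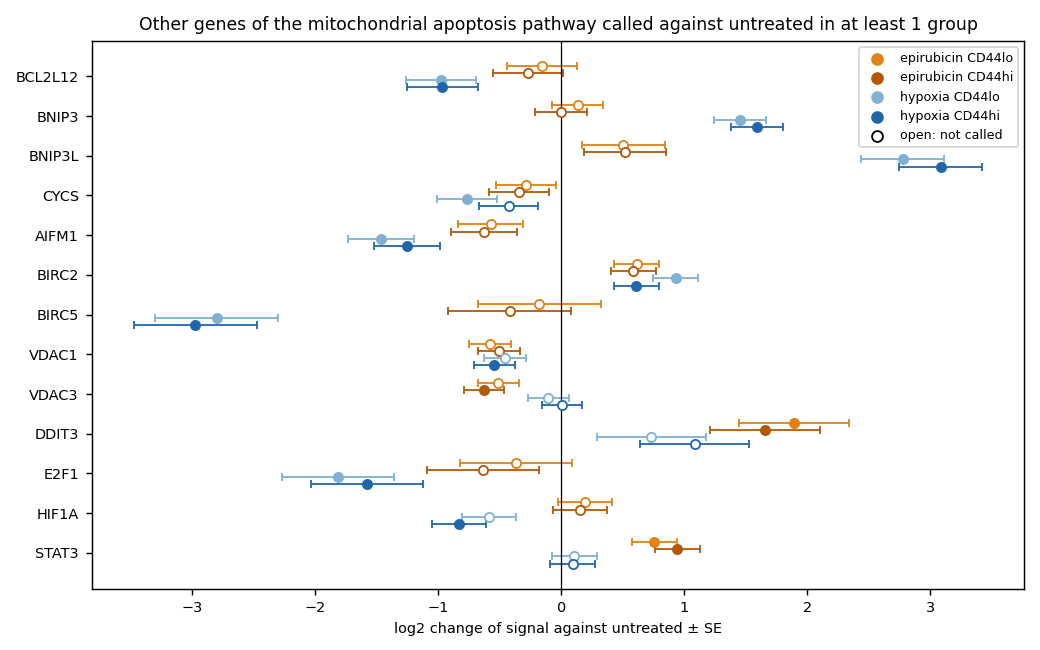
Log2 change against untreated cells (horizontal axis, ± SE) of the listed pathway genes that were called in at least 1 treated group, with filled points called and open points not called. BNIP3L lies at 2.77 and 3.08 and BIRC5 at -2.80 and -2.98 after hypoxia, and DDIT3 and STAT3 are filled after epirubicin.

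Some genes followed the called members closely over the 19 arrays, which fall into 5 groups, so that these correlations describe the groups as much as single arrays. PSMB9, an immunoproteasome subunit, was nearest to PMAIP1 (Pearson r = 0.972 over 19 arrays), followed by LCN2 (0.960) and C1S (0.959). GTPBP2 (0.952), ZNF224 (0.933) and SMAD3 (0.931) were nearest to BMF. SGO2, which guards sister chromatid cohesion, was nearest to BID (0.964), followed by PMCH (0.956) and the nuclear pore protein gene NDC1 (0.953). These 3 members were those with the largest called changes against untreated cells. Likeness was measured on log2 signals, between the lead probe set of the member and every tested probe set that names a single other gene. Each gene is given by its probe set with the highest correlation.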

How the data were processed

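Per the submitters' processing notes, the authors made the deposited signal intensities with MAS5, whose version and settings are not given in the sources used here. Biotin-labelled RNA came from 200 ng of total RNA per sample, per the labels' protocols. The values are linear intensities per probe set, scaled to a trimmed mean (2% at each end) of 100, so no further scaling was applied. With arrays, precision is limited by their number.

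Of 54675 probe sets, 62 array controls were left out, and 41091 named 1 gene, 1801 several and 11721 none in the platform annotation. Of the rest, 32252 (59.1%) passed the filter. Means of the 5 groups were fitted over the 19 arrays in limma 3.58.1 (R 4.3.3) with a variance trend, two-sided, in 9 comparisons: 4 with untreated cells, 2 of CD44hi with CD44lo, 2 of hypoxia with epirubicin, and the difference of the CD44 effects. limma's adjusted p-values are over all tested probe sets of a comparison. In simulated data for CD44lo cells after hypoxia against untreated, with 200 of 32252 probe sets changed, 37% of 2-fold and 82% of 4-fold changes were recovered, with 7 false calls. The simulated noise was independent between arrays, and 5547 probe sets (17.2%) were called in the real comparison. The simulation therefore checks the fit, and its rates do not carry over to the real comparison. No pair of arrays shared over 1.65% of values, so none was counted as a duplicate.

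All members were named, and of each pathway list up to 4 called genes per comparison. The members and lists were chosen with earlier results of these data known. Alternatives were the offset, filter, normalization, block, variance trend, arrays in the fit, summary of probe sets, hybridisation controls as a covariate, and leaving out arrays.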

Additional observations from a re-analysis of the deposited data

Results flagged for a closer look

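BMF read 169.1 on array 2 of CD44lo cells after epirubicin, while the other 3 arrays of that group read 379.8 to 429.4. The gap to the nearest array was 0.868 of the range of the group, above Dixon's critical value for 4 arrays. Hybridisation controls averaged 2042 on this array and 2996 to 4161 on the other 3; their part was not tested. Of the lead probe sets, 36 groups of 4 arrays were checked in this way, and chance alone picks about 1 in 20 groups. The difference of the CD44 effects between hypoxia and epirubicin was called for 0 member probe sets.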

How the results depend on the processing

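In all, 32 alternatives were run, 19 of them leaving out 1 array. Over the 81 tests of lead probe sets, 14 of them called, 2414 of 2565 values kept direction and side of the threshold, 49 lost a call, 12 gained one, 0 called values changed sign, and 90 uncalled values changed sign. PMAIP1 after epirubicin and BID after hypoxia, on lead probe sets, were called under every alternative.

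The count of called member probe sets moved beyond 1.5 times the reported one in these settings; the causes were not tested, beyond the smaller number of probe sets tested under 1 probe set per gene and under gene means. In CD44lo cells after epirubicin it was 1 with the hybridisation controls as a covariate (3 reported; 1 to 3 leaving out single arrays). In CD44hi cells after epirubicin it was 2 with that covariate, 2 with epirubicin arrays 4 left out, 2 with 1 probe set per gene and 3 with gene means (6 reported; 2 to 7). In CD44lo cells after hypoxia it was 5 with the compared groups alone, 3 with 1 probe set per gene and 4 with gene means (8 reported; 2 to 9). In CD44hi cells after hypoxia it was 3 with 1 probe set per gene (7 reported; 3 to 10). Hypoxia against epirubicin gave 2 in each fraction with 1 probe set per gene and 2 with gene means (5 reported; 3 to 5 in CD44lo and 5 to 5 in CD44hi cells). CD44hi against CD44lo and the difference of the CD44 effects gave 0 throughout.

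Over all probe sets, 704 and 1793 were called in CD44lo and CD44hi cells after epirubicin, 176 and 230 after adjustment for the hybridisation controls, 344 and 908 without the epirubicin arrays numbered 4, and 2456 in CD44lo cells fitted with untreated cells alone; leaving out single arrays gave 88 to 952 and 433 to 2116. After hypoxia 5547 and 7058 were called, with 3026 to 7433 and 4610 to 7803 leaving out single arrays. Among pathway genes the VDAC3 and DDIT3 calls after epirubicin, the STAT3 call in CD44lo cells and the VDAC1 and CYCS calls after hypoxia also ended without the variance trend.

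The labels do not say that equal replicate numbers pair the samples. Deviations of same-numbered CD44lo and CD44hi arrays correlated at 0.29, 0.50, 0.07 and 0.40 after epirubicin and -0.01, 0.61, 0.25 and 0.51 after hypoxia, for numbers 1 to 4. Not every pair passed 0.1, so the block was not taken as the pairing, although in 3 of 4 pairs of each exposure this was above the highest correlation with another number, a hint from the data. With the replicate number as a block over all 5 groups, 36 of 234 member tests were called against 34 without it, and 34 in both. The block added BAK1 (adjusted p = 0.0235) and probe set 200798_x_at of MCL1 (0.0464) in CD44hi cells after hypoxia. Among pathway genes it added BIRC2 after epirubicin (0.0311 in CD44lo, 0.0247 in CD44hi cells) and HIF1A in CD44lo cells after hypoxia (0.0342). With the compared groups alone, AIFM1 (0.0376 and 0.0317) and BIRC2 (0.0232 and 0.0432) were called in both fractions after epirubicin, and with quantile normalization VDAC1 was (0.0235 and 0.0163).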
